A study of Mus musculus with 4 samples.

Results

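Cytosolic ribosomal protein genes were taken by name: Rpl or Rps followed by a number, together with Rplp0, Rplp1, Rplp2 and Rpsa. This rule found 4 of the 22369 genes in the table, namely Rplp0, Rplp1, Rplp2 and Rpsa, and numbered Rpl and Rps genes are not analysed here. The values below therefore describe the stalk protein genes and Rpsa, and say nothing of ribosomal protein genes as a class. RNA was sequenced from OG2MEF cultures, mouse embryonic fibroblasts with an Oct4-driven fluorescent reporter, on day 9 of reprogramming. Of the 4 libraries 2 were labelled as wild-type SOX17 and 2 as SOX17-V118M, an endodermal transcription factor with a missense change at the surface where it meets OCT4. According to the protocol, pMX retroviruses delivered Sox2 and Klf4, and with them OCT4, or SOX17, or SOX17-V118M, or GFP, and the medium contained LIF and vitamin C, but the combination given to each library is not stated.

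The ribosome is built from ribosomal RNA and a set of ribosomal proteins, which growing cells make in balanced amounts. Rplp0, Rplp1 and Rplp2 encode the acidic proteins of the stalk, a flexible arm of the large subunit that recruits the GTPases of elongation. Rplp0 is the base of the stalk and holds dimers of Rplp1 and Rplp2. Rpsa encodes a protein of the small subunit that is also known as the laminin receptor. Messenger RNAs of ribosomal proteins typically begin with a C followed by a tract of pyrimidines, the TOP motif, through which mTORC1 and the RNA-binding protein Larp1 control their translation.

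The annotated start sites are shown because a TOP tract is typical of the messages of this gene class, although the members were taken by name. RefSeq start sequences (GRCm38.p6) matched 3 of the 4 members, and none is shown for Rplp1. Each line gives 30 bases before and 30 bases from the start, 5′ to 3′ on the plus strand, which is the strand of all 3 genes. The windows are chr5:115559437-115559496 for Rplp0, chr7:141447621-141447680 for Rplp2 and chr9:120127736-120127795 for Rpsa. Capitals mark a C followed by at least 4 bases that are each C or T, starting within 10 bases of the start on this strand, or the letters TATAAA.
Rplp0: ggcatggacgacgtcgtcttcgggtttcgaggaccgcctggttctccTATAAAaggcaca
Rplp2: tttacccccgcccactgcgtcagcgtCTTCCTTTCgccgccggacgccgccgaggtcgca
Rpsa: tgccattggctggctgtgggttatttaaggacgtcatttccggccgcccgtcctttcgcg
In Rplp2 a pyrimidine run of 9 bases began 4 bases before the annotated start. Such a run was found at 30.7% of all 32851 start sites in the reference. In Rplp0 the letters TATAAA began at base 18 after the annotated start. On the strand of the gene they were found in the same window at 2.02% of start sites. Neither search gave a match for Rpsa. Runs that began more than 10 bases from the annotated start were not marked, and the windows of Rpsa and Rplp0 each hold such a run. The lack of a mark therefore does not show that a message lacks a TOP tract. The start listed in the expression table was the RefSeq start for Rplp0, but lay 281 bases from it for Rplp2 and 77 bases from it for Rpsa.

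The members lie on 3 chromosomes of GRCm38. Rplp0 (ENSMUSG00000067274) is at chromosome 5, 115559467 to 115563727, on the plus strand, and its listed transcript has 7 exons and 1358 bases. Rplp1 (ENSMUSG00000007892) is at chromosome 9, 61913284 to 61914542, on the minus strand, with 3 exons and 499 bases. Rplp2 (ENSMUSG00000025508) is at chromosome 7, 141447370 to 141451585, on the plus strand, with 5 exons and 964 bases. Rpsa (ENSMUSG00000032518) is at chromosome 9, 120127689 to 120132369, on the plus strand, with 7 exons and 1938 bases. By gene name, the annotation holds 9 pseudogenes of Rpsa, 1 of Rplp0 and 1 of Rplp1, which are not analysed here. Copies under other names were not counted. How reads shared with these copies were assigned is not stated, so the values of the parent genes are uncertain to that extent.

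Sox17, the gene that differs between the groups, scored 3484 and 2880 with wild-type SOX17 and 3016 and 2396 with V118M, and the table cannot show the mutation. Pou5f1, which encodes OCT4, was at the shared highest score of 61186 in all 4 libraries. Of the other factors named in the protocol, Klf4 scored 29444 in 3 libraries but 17589 in V118M replicate 2, and Sox2 scored only 2, 2, 4 and 2, so these values did not show its delivery. All 14 fibroblast markers were above 0 in every library, with a summed score of 183585 and 183717 in wild type and of 186023 and 150896 in V118M replicates 1 and 2. The 9 leukocyte markers summed to 887 and 837 in wild type and to 660 and 641 in V118M replicates 1 and 2. Of these markers 4 (Adgre1, Fcer1g, Ptprc and Tyrobp) were at 0 in at least 1 library. The 6 epithelial markers summed to 13968 and 14150 in wild type and to 13327 and 12945 in V118M replicates 1 and 2. Both V118M libraries were thus lower for the leukocyte and the epithelial markers, and these sums were not tested. The 7 pluripotency genes summed to 61287 and 61346 in wild type and to 61423 and 61398 with V118M. Pou5f1 made up 61186 of each sum, so the rest scored low, with Nanog at 1 to 8. Both V118M sums were above both wild-type sums, which was not tested. V118M replicate 2 stood apart: across 12661 genes with a mean log2 score of at least 5, it correlated with the other libraries at Pearson's r of 0.954 to 0.964, while those correlated with each other at 0.986 to 0.990. In bulk samples, fewer cells of a type and less RNA per cell cannot be told apart.

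No difference between V118M and wild type passed the test in any of the 4 genes, and the values of the groups overlapped or were tied in each. Rplp1 and Rplp2, the outer stalk proteins, were about 2-fold higher in V118M replicate 2 than in the other 3 libraries, and V118M replicate 1 did not share this. Rplp0 and Rpsa exchanged a single pair of values between libraries. The limma adjusted p was 0.951 for each of the 4 genes, and 0 of 4 also had an unadjusted p under 0.05. Over all 19547 genes tested, 0.0% were called, and 4.01% had an unadjusted p under 0.05.

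**Figure D1:**
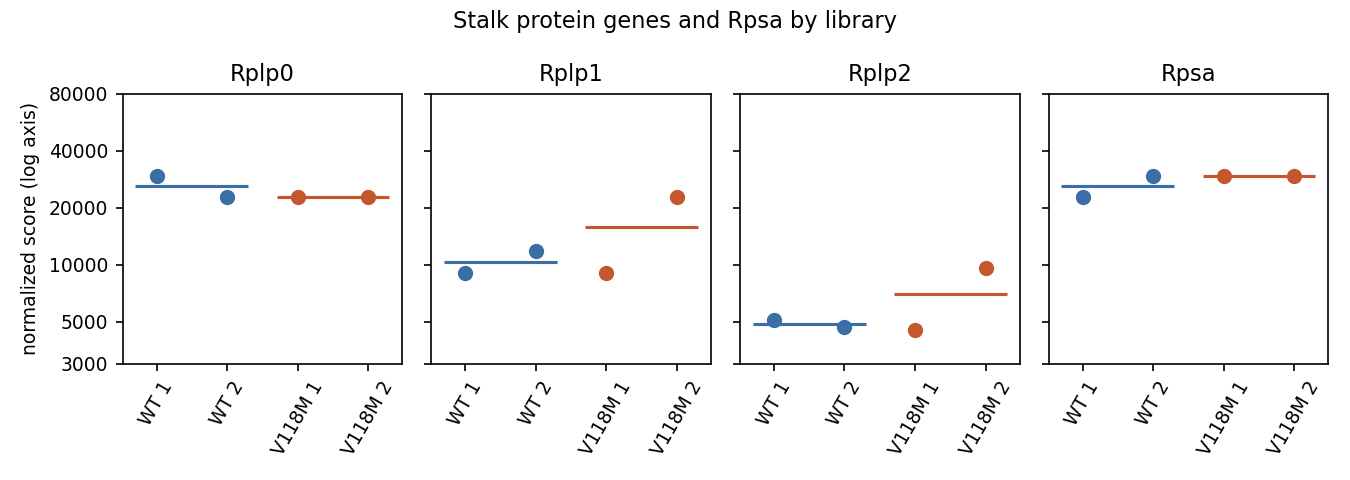
Normalized score (log axis) of Rplp0, Rplp1, Rplp2 and Rpsa in each library, wild type in blue and V118M in orange, with a line at each group mean (n = 2 per group). Rplp1 and Rplp2 are highest in V118M replicate 2, at 22700 and 9550, while V118M replicate 1 lies at or below the lower wild-type library.

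Rplp1 scored 8994 and 11726 in wild-type replicates 1 and 2, then 8994 and 22700 in the V118M replicates. V118M replicate 1 was thus tied with wild-type replicate 1, and only V118M replicate 2 lay above the wild-type range. The wild-type mean was 10360 ± 1932 and the V118M mean 15847 ± 9692 (SD, n = 2 each). The log2 difference was 0.48 ± 0.46 (standard error), with a 95% interval from -0.69 to 1.64 (limma adjusted p = 0.951). This interval holds no change as well as a 2-fold increase. Ranked among all genes of its library, Rplp1 stood at position 139 in wild-type replicate 1 and V118M replicate 1, at 99 in wild-type replicate 2 and at 29 in V118M replicate 2.

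Rplp2, its partner in the stalk dimers, scored 5082 and 4691 in wild type, then 4509 and 9550 with V118M. The V118M libraries lay on either side of the wild-type values, the first just below them and the second well above. The group means were 4886.5 ± 276 and 7029.5 ± 3565 (SD, n = 2 each). The log2 difference was 0.43 ± 0.37 (standard error), with an interval from -0.51 to 1.36 (limma adjusted p = 0.951). Without V118M replicate 2 the log2 difference turned negative for both stalk partners, to -0.19 for Rplp1 and -0.11 for Rplp2.

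The difference of V118M replicate 2 from the mean of the other 3 libraries was 1.21 on the log2 scale for Rplp1, which is 2.31-fold. For Rplp2 it was 1.01, which is 2.01-fold. Of the 12661 genes with a mean log2 score of at least 5, 97 (0.766%) had a larger positive difference in that library than Rplp1, and 202 (1.6%) a larger one than Rplp2. Because both genes moved in the same library, their ratio changed less than either score: Rplp1 was 1.77, 2.50, 1.99 and 2.38 times Rplp2 in wild-type replicates 1 and 2 and V118M replicates 1 and 2. For this ratio V118M replicate 2 lay within the range of the wild-type libraries. Relative to Rplp0 it lay above them, with Rplp1 at 0.31, 0.52, 0.40 and 1.00 times Rplp0 in the same order of libraries and Rplp2 at 0.17, 0.21, 0.20 and 0.42 times. Rplp0 took only the scores 29448 and 22704, which are steps of the scale described below. In V118M replicate 2 Rplp1, at 22700, lay on the same step as Rplp0, at 22704. The ratio of 1.00 is therefore set by this step and is not a measured equality.

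Rplp0, the base of the stalk, scored 29448 and 22704 in wild type, and 22704 in both V118M libraries. Wild-type replicate 1 alone was high, and the other 3 libraries were tied. The log2 difference was -0.19 ± 0.20 (standard error), with an interval from -0.69 to 0.32 (limma adjusted p = 0.951). Rpsa showed the mirror image, with 22704 and 29448 in wild type and 29448 in both V118M libraries. This gave a log2 difference of 0.19 ± 0.20 (standard error), with an interval from -0.32 to 0.70 (limma adjusted p = 0.951). Without wild-type replicate 1 both differences were exactly 0, and without wild-type replicate 2 they were -0.38 for Rplp0 and 0.38 for Rpsa.

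The values of Rplp0 and Rpsa are steps of a scale that all libraries share. In each library the 10 highest genes were at 61186, the next 10 lay between 29440 and 29496, the next 10 between 22697 and 22758, and the 10 after these between 19000 and 19035. Within a step the values differed by at most 0.269%, while Rplp0 and Rpsa differed from each other by 1.30-fold, the distance between neighbouring steps. In every library the score 29448 was held by 1 gene and the score 22704 by 1 gene, and these were always Rplp0 and Rpsa. Their opposite fold changes of equal size are therefore an exchange of these 2 scores: Rplp0 was at position 18 and Rpsa at position 28 in wild-type replicate 1, and the reverse in the other 3 libraries. Between 29496 and 61186 no library had any value, and changes of Rplp0 or Rpsa too small to move them to another step cannot be seen in these scores. The 22700 of Rplp1 in V118M replicate 2 lies on the third step too. For the same reason the scores of different members are not compared as expression levels per length.

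**Figure D2:**
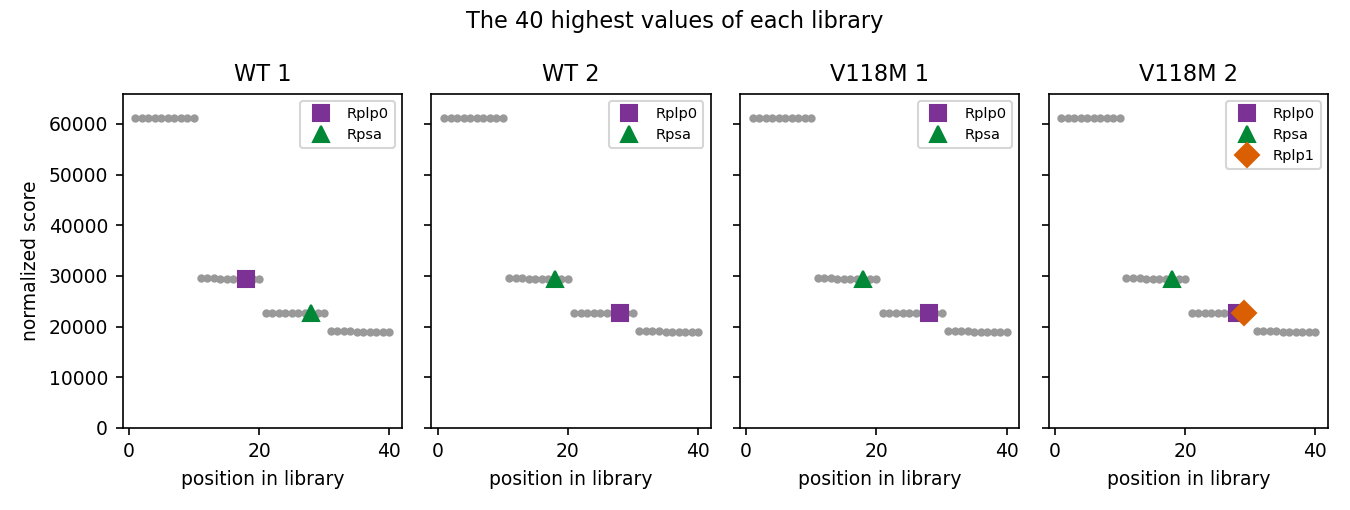
The 40 highest scores of each library against their position, with Rplp0, Rpsa and Rplp1 marked where they fall among them. Scores come in steps of 10 genes, Rplp0 and Rpsa occupy 29448 and 22704 in every library, and Rplp1 appears only in V118M replicate 2, at 22700.

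Transcript length was negatively related to the deviation of V118M replicate 2, and positively to that of both libraries numbered 1. Across 12635 genes with a mean log2 score of at least 5 and a known length, this deviation had a Spearman's rho of -0.458 with the length of the listed transcript, given as a description over genes of the same libraries. The deviation of each other library, whose reference includes V118M replicate 2, had a rho of 0.390 for wild-type replicate 1, 0.381 for V118M replicate 1 and 0.078 for wild-type replicate 2. Rplp1 and Rplp2 are short, with 3.57% and 12.8% of these genes having a shorter listed transcript, against 19.4% for Rplp0 and 31.8% for Rpsa. Each gene has a single listed transcript, and whether it is the main message of its gene was not tested. After a trend on length and GC content was removed from each library, V118M replicate 2 was still above the mean of the others by 1.07 for Rplp1 and by 0.74 for Rplp2 (log2 scale). For Rplp0 and Rpsa the difference was -0.37 and -0.03, against -0.13 and 0.13 before. Each of these genes had the same score in V118M replicates 1 and 2 and in wild-type replicate 2. The change in their values therefore comes from the subtracted trend and is not a measured drop. The lower fibroblast marker sum of the same library is given above, and its part in these values was not tested.

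**Figure D3:**
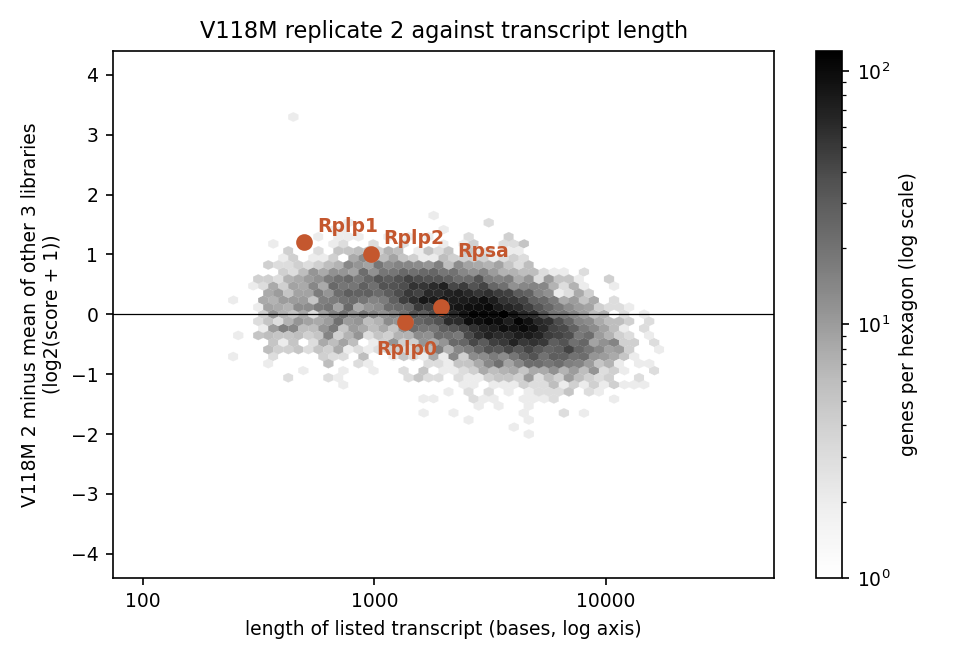
Difference of V118M replicate 2 from the mean of the other 3 libraries, on the log2(score + 1) scale, against the length of the listed transcript (log axis), with shading for the number of genes. Rplp1 and Rplp2 lie near the upper edge at 1.21 and 1.01, and Rplp0 and Rpsa near 0.

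A pair of ribosomal protein genes whose names fall outside the rule, Fau and Rack1, were compared with the members. Fau, which encodes a small-subunit protein fused to a ubiquitin-like domain, scored 2437 and 3420 in wild type, then 2928 and 3856 with V118M. Rack1, a scaffold on the small subunit, scored 22720 in 3 libraries and moved to the neighbouring step, 29462, in V118M replicate 2. In these 2 genes V118M replicate 2 was the highest library, as it was for 2 of the 4 members and for 38.2% of all genes tested. Its difference from the mean of the others was smaller than for the outer stalk genes, at 0.41 for Fau and 0.37 for Rack1 on the log2 scale. Fau is almost as short as Rplp1, with a listed transcript of 508 bases, while that of Rack1 has 4456. After removal of the length and GC trend, the difference was 0.27 for Fau and 0.59 for Rack1. Whether the listed transcripts are the main messages was not tested. The difference of Rack1 before removal is the distance between neighbouring steps, so its size is set by the scale. The groups did not overlap in 0 of these 2 genes and in 0 of the 4 members, against 28.0% of all genes tested.

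V118M minus wild type was positive for 3 of the 4 members, with a median of 0.31, against 50.0% of all genes tested and a median of 0. Relative to the wild-type mean, the median of the 4 members was -0.15 in V118M replicate 1 and 0.58 in V118M replicate 2. Among 15 other genes listed for their TOP messages, which include elongation and initiation factors, the same medians were 0.00 and 0.42. V118M replicate 2 was the highest library for 11 of them, against 38.2% of all genes tested. Nap1l1 and Eef2 had the smallest limma p of this list, so their values chose them. Eef2, a GTPase of elongation that the stalk recruits, scored 29460 in 3 libraries but 61186, the next step of the scale, in V118M replicate 2. The elongation factor gene Eef1a1, of the same list, scored 61186 in all 4 libraries. This is the highest score of the scale, so a rise of Eef1a1 could not be seen. The histone chaperone Nap1l1 scored 7804 in both wild-type libraries, then 8086 and 11814. Among 77 mitochondrial ribosomal protein genes, which encode proteins of the separate ribosome of the mitochondrion, the medians were -0.04 and 0.47. V118M replicate 2 was the highest library for 72 of them, against the same 38.2%. After removal of the length and GC trend, the median difference of V118M replicate 2 from the other libraries went from 0.57 to 0.36 for the 4 members, from 0.41 to 0.20 for the TOP list and from 0.49 to 0.28 for the mitochondrial list. In every one of these lists 0 genes passed the limma test, adjusted or at an unadjusted p under 0.05.

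**Figure D4:**
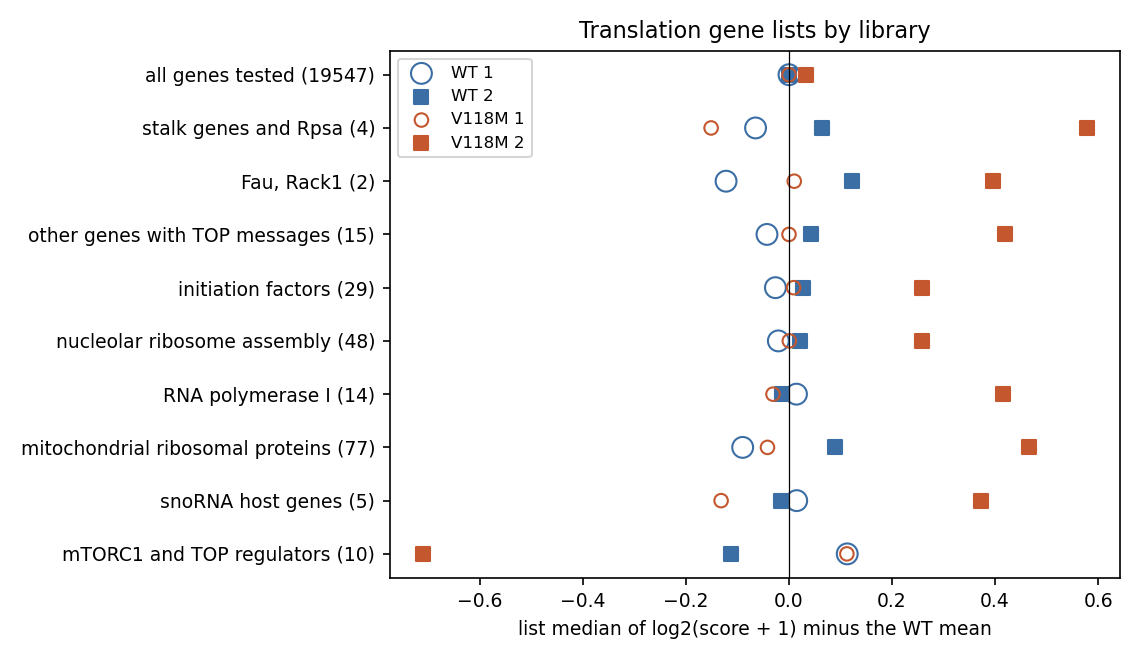
List medians of log2(score + 1) minus the wild-type mean, for each library, with the number of genes tested in brackets; wild type in blue, V118M in orange, replicate 1 open and replicate 2 filled. V118M replicate 2 lies apart from the other 3 libraries for each list other than all genes, to the right for the members (0.58) and to the left for the regulators of mTORC1 and TOP messages (-0.71).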

How the data were processed

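RNA sequencing values from 4 libraries of OG2MEF reprogramming cultures were used, 2 labelled SOX17 WT and 2 labelled SOX17-V118M. The table deposited by the authors gives every library a whole-number score per gene, for 22369 genes. The submitters' processing notes list DESeq2, RSEM, Bowtie2, FastQC and the build mm10, giving neither versions nor roles. How the scores were normalized is not stated there. The scores are not raw counts, because after sorting, all 4 columns were equal at 76.7% of ranks and the 4 totals lay between 12855482 and 12859613. Sequencing depth is therefore unknown, and no counting interval or detection limit is given. The test planned for counts was replaced by the test planned for a normalized unit.

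Scores were transformed as log2(score + 1), and 19547 genes that reached a score of 1 in 2 or more libraries were tested. The model had group as its single term and was fitted with limma 3.58.1 (R 4.3.3, trend and robust options), after being tested on simulated data. The two-sided p-values were adjusted by the Benjamini-Hochberg method across the whole set of tested genes, with a threshold of 0.05. Intervals are 95% intervals from the same fit. Differences are V118M minus wild type. Nothing in the labels says whether replicates came from separate cultures. The p-values therefore reflect only the spread among these libraries, which may be technical.

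Members were found by gene name. Beside the delivered factors and cell type markers, the genes named are the 4 members, the 2 genes with the smallest p of each other list and Rpl6l. The last was picked with its values in view. Eef1a1, Tsc1 and Mtor are also named from their lists, and were not chosen by their p. Of the listed genes whose names fall outside the rule, those reported are Fau and Rack1, and the others are not analysed here. The members and lists were chosen with earlier results of these data known. Gene positions, transcript lengths and GC content came from GENCODE M21 (GRCm38), in which 22304 of the listed transcripts were found, and start-site sequences from RefSeq (GRCm38.p6). Alternatives were pseudocounts of 0.1 and 5, no filter, a filter at 10, the replicate number as a block, removal of a spline trend on transcript length and GC content from each library, the last 2 together, array quality weights, and each library left out.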

Additional observations from a re-analysis of the deposited data

How the results depend on the processing

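In all 12 refits 0 of the 4 members and 0 genes of the other translation lists passed the limma test. Over all genes, 3 were called with the replicate block and 24 with the block after removal of the length and GC trend, where 0 were called without the block. The number of genes with an unadjusted p under 0.05 was 784, against 1441 with no filter, 1204 with the block, 1425 with the block and the trend removed, and 221 to 5096 with a library left out (fewest without wild-type replicate 1, most without V118M replicate 1). The lowest adjusted p of a member in any refit was 0.149, for Rplp2 without V118M replicate 1. Same-numbered libraries deviated together from their group means (Pearson's r 0.303 across 12661 genes), but the labels do not say that numbers mark a shared culture, and with 2 pairs the check cannot settle it. With the replicate block the log2 fold changes were unchanged in size, at 0.48 for Rplp1 and 0.43 for Rplp2 (adjusted p = 0.806 and 0.808).

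The member median of 0.31 was lowest without V118M replicate 2 (-0.15) and highest without V118M replicate 1 (0.58). Rplp1 ranged from -0.19 to 1.14 and Rplp2 from -0.11 to 0.97 between these same refits, so the direction of both rests on V118M replicate 2. Removing the trend on length and GC content gave a member median of 0.22, with 0.42 for Rplp1, 0.32 for Rplp2, -0.29 for Rplp0 and 0.12 for Rpsa. Pseudocounts and filters left the median at 0.31. No member was tied in all 4 libraries. Depth is unknown, and the steps at the top of the scale limit Rplp0 and Rpsa.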

Other observations

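Lists of genes that act in ribosome assembly and in initiation are given here by library. Among 48 nucleolar assembly genes the median shift from the wild-type mean was 0.001 in V118M replicate 1 and 0.26 in V118M replicate 2, among 29 initiation factors 0.01 and 0.26, and among 14 genes of RNA polymerase I -0.03 and 0.41. V118M replicate 2 was the highest library for 34, 21 and 8 of these genes and the lowest for 9, 3 and 3. Over all genes tested it was the highest for 38.2% and the lowest for 32.7%. With the length and GC trend removed, its median difference from the other libraries went from 0.29 to 0.18, from 0.28 to 0.25 and from 0.40 to 0.30. The groups did not overlap in 11 of the assembly genes (8 higher, 3 lower), in 9 of the initiation factors (9 higher) and in 5 of the polymerase genes (3 higher, 2 lower), and 0 passed the limma test, adjusted or unadjusted, against 28.0% without overlap among all genes tested. Dkc1, the pseudouridine synthase of ribosomal RNA, was at 1477 and 1489 in wild type and at 1772 and 2326 in V118M (log2 difference 0.45 ± 0.18, standard error; limma adjusted p = 0.951). Lyar was at 768 and 916 against 914 and 1372. The initiation factor genes Eif3d and Eif2b2 were at 3220 and 3447 against 3798 and 4358, and at 456 and 473 against 520 and 593. Polr1e was at 484 and 490 against 552 and 662, and Taf1d, of the promoter selectivity factor, at 1016 and 1116 against 1127 and 1966. The mitochondrial ribosomal protein genes Mrpl15 and Mrpl54 were at 688 and 803 against 858 and 1209, and at 276 and 301 against 320 and 478. These 8 genes had the smallest p of their lists, so the separation of the groups chose them and is not a result.

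Of 10 tested regulators of mTORC1 and of TOP messages, 7 had their lowest score in V118M replicate 2, as did 32.7% of all genes tested, and 0 passed the limma test. In that library they had a median of -0.71 relative to the wild-type mean, against 0.11 in V118M replicate 1. With the length and GC trend removed, their median difference of V118M replicate 2 from the other libraries went from -0.72 to -0.45. Their median listed transcript length was 2848 bases, against 2791 for all tested genes with a mean log2 score of at least 5. These are lengths of listed transcripts, such as 1711 bases for Tsc1 and 2229 for Mtor. Whether these are the main messages was not tested. V118M minus wild type was positive for 3 of the 10. Tsc2, an inhibitor of mTORC1, was at 1190 and 1028 in wild type and at 1119 and 646 in V118M. Larp1, which binds TOP messages, was at 5812 and 5458 against 6982 and 6334 (log2 fold change 0.24, limma adjusted p = 0.951). Among 5 host genes of small nucleolar RNAs the same median difference went from 0.37 to -0.07. Of these, Snhg5 was at 422 and 412 against 416 and 540, and Snhg6 at 194 and 190 against 175 and 303.

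Chosen after its values were seen, Rpl6l, a gene named for its likeness to a large-subunit protein gene, was at 14813 and 16292 in wild type and at 13637 and 29444 in V118M. Its difference in V118M replicate 2 from the mean of the other libraries, 0.99 on the log2 scale, was close to that of Rplp2, and its listed transcript has 871 bases. How reads shared with the parent gene were assigned is not stated.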
